A study of Mus musculus with 4 samples.

Results

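The 48 genes described here encode cyclins, cyclin-dependent kinases, DNA replication factors and mitotic proteins. They were chosen by symbol, with earlier results of these data known: 4 act in the G1 phase, 21 in S phase and 23 in G2 and mitosis. All 48 were among the 24421 genes of the count files, and all 48 passed the filter on low counts that left 16322 genes to test. The cells were regulatory T cells (Tregs, the Foxp3-expressing CD4 T cells that restrain immune responses) of the B6 Foxp3-DTR/GFP strain, in which the Foxp3 locus also drives a diphtheria toxin receptor and a green fluorescent reporter. CD45.1+ mice were given EG7.1.15 tumor cells intraperitoneally and were surgically joined for 14 days to tumor-free CD45.1- partners. At day 14 after injection, partner-derived Tregs were sorted as live CD45.1-, CD45.2+, B220-, CD4+, CD25+, GFP+ cells from omental tumors and from spleens of the tumor-bearing animals, and RNA was sequenced. Each tissue gave 1 library from mouse 2 and 1 from mouse 3, so the groups are 2 omental tumor and 2 spleen libraries from the same 2 mice. The spleens came from tumor-bearing animals, ages are not given in the labels, and no tumor-free control is part of the comparison.

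In G1, D-type cyclins with CDK4 and CDK6 phosphorylate the retinoblastoma protein, which frees E2F factors to switch on the genes of DNA replication. MCM helicases are loaded onto origins, the replication fork is assembled, and nucleotides are made for DNA synthesis. Genes of G2 and mitosis are switched on later, many of them through a promoter element called the cell cycle genes homology region (CHR) and through CCAAT boxes, and they drive CDK1 activation, chromosome attachment and division. T cells that are not dividing express little of either set, so these genes are commonly read as a record of cells in cycle.

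The split into S-phase and mitotic members was matched by a difference in promoter letters, which the choice of genes did not use. RefSeq promoter windows (GRCm38.p6, 250 bases before to 50 bases after the gene start, 300 in all) were matched by symbol for 39 of the 48 members. RefSeq and GENCODE can place a start differently: in 29 of the 39 the bases after the start lay in a GENCODE transcript, and of the windows shown those of Mcm5, Mcm6 and Mki67 were among the rest. The Cdk6 window lies inside the annotated span of its gene. The letters searched, on both strands, were TTCCCGC or TTGGCGC for an E2F site, TTTGAA for a CHR and CCAAT for a CCAAT box. A CCAAT match read on the other strand as ATTGG can overlap a TTGGCGC match. An E2F match was in 8 of 17 S-phase windows (47.1%) and 3 of 19 mitotic windows (15.8%), against 6.93% of the 27025 windows of all genes. A CHR match was in 2 of 17 S-phase windows (11.8%) and 14 of 19 mitotic windows (73.7%), against 18.1% of all windows. CCAAT was in 11 of 17 (64.7%) and 17 of 19 (89.5%), against 37.9%, and none of the 3 G1 windows held any of these letters. The stretches below, 60 bases each and read 5′ to 3′ on the gene's strand, show 4 replication genes with an E2F match, 3 mitotic genes with a CHR match and Cdk6, whose window held no match. Capitals mark E2F, CHR and CCAAT letters.
Mcm5, chr8:75109340-75109399, plus strand: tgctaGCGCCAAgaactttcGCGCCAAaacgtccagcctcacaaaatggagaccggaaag
Mcm6, chr1:128359716-128359775, minus strand: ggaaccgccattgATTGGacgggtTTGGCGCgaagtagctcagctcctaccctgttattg
Rrm1, chr7:102441623-102441682, plus strand: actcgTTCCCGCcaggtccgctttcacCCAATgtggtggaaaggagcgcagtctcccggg
Uhrf1, chr17:56303267-56303326, plus strand: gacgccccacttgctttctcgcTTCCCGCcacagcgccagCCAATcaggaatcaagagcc
Mki67, chr7:135716466-135716525, minus strand: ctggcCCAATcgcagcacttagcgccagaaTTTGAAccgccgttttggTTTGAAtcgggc
Cdk1, chr10:69352938-69352997, minus strand: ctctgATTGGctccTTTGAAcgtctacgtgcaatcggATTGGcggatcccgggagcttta
Cdc20, chr4:118437351-118437410, minus strand: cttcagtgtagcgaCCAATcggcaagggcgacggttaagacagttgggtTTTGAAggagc
Cdk6, chr5:3343823-3343882, plus strand: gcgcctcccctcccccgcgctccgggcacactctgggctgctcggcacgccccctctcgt
A match describes the letters in the window and is not a measurement of binding.

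The omental libraries held 6660230 and 3764510 counts in genes and the spleen libraries 9989000 and 13598600, for mouse 2 and mouse 3 in that order, which is the order of all paired values below. Levels are in CPM, counts scaled to a common size by the library's gene total times its TMM factor (0.804 to 1.15). The genes the cells were sorted on were present in every library, but unequally: Foxp3, Il2ra, Cd4 and Ptprc (CD45) together summed to 3225 and 1443 CPM in tumor Tregs against 3977 and 6073 CPM in spleen Tregs, lowest in the omental library of mouse 3. Foxp3, the Treg lineage factor, was at 81.4 and 84.3 CPM in tumor Tregs against 113 and 144 CPM in spleen Tregs. The omental library of mouse 3 also stood apart in ribosomal RNA: the ribosomal precursor gene Rn45s, chosen after its values were seen, took 4.86% of its gene counts and between 0.798% and 1.23% in the other 3 libraries. The part of these differences in the results below was not tested. Markers of other cells also differed between libraries. The 5 neutrophil markers in the files summed to 102 and 1377 CPM in tumor Tregs against 87.7 and 43.2 CPM in spleen Tregs, 8 macrophage and monocyte markers to 423, 703, 173 and 356 CPM in the same order, and 6 B and plasma cell markers to 578, 29.1, 198 and 239 CPM. Those 3 lists had no marker at 0 in every library. Among markers of other cells that can divide, immature T cell genes summed to 37.3, 43.3, 17.2 and 6.59 CPM and granulocyte precursor genes to 13.1, 13.9, 3.13 and 17.02 CPM, with Elane at 0 in all 4 libraries. Fibroblast genes summed to 170 CPM in tumor Tregs of mouse 2, and elsewhere to between 6.50 and 13.9 CPM. The part of these cells in the results was not tested.

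Cell cycle genes were expressed in all 4 libraries, and for none of the 48 did the difference between omental tumor and spleen pass the test. By edgeR's quasi-likelihood test with Benjamini-Hochberg adjustment at 0.05, 0 members were higher and 0 lower in omental tumor, where 1.09% of all genes tested were higher and 0.227% lower. At an unadjusted p under 0.05 edgeR counted 3 members, Cdk6 and Ccna2 higher and Ccnd3 lower, and 9.01% of all genes. The spread in that test was taken wholly from the trend over all genes. DESeq2 and limma-voom called 1 member each, which was Cdk6 in both, where they called 370 and 163 of the 16322 genes. With the mouse as a block, edgeR called 0 members and 1.89% of all genes, and the members at an unadjusted p under 0.05 went from 3 to 1. Simulated data with these library sizes recovered 0% of genes changed 4-fold, 20% of those changed 8-fold and 56% of those changed 16-fold. Each share is of 50 changed genes. A member without a call may therefore still differ 4-fold. In bulk RNA a larger share of cycling cells and more RNA per cycling cell cannot be told apart.

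Fitted log2 fold changes ran from -1.58 for Ccnd3 to 2.71 for Cdk6, with omental tumor over spleen positive. There were 24 positive and 24 negative members, where 53.6% of all genes were positive. The median was -0.59 for the G1 genes, 0.45 for S phase and -0.11 for mitosis, against 0.11 for all genes tested. Scaling by library gene totals alone moved the median of all genes to 0.37, the S-phase median to 0.78, the mitotic median to 0.26 and the G1 median to -0.28, and left 36 members positive. Upper-quartile factors left 40 positive, and the number was 12 without the spleen of mouse 2 and 46 without the spleen of mouse 3. The mitotic median was thus negative or positive depending on the scaling, and under both it lay below the median of all genes, as the S-phase median lay above it. Only 9 members kept their direction in every alternative tried: Cdk6, Ccne2, Cdt1, Gins2, Tyms, Cdk1 and Cdc20 positive, and Ccnd3 and Mcm4 negative.

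**Figure D1:**
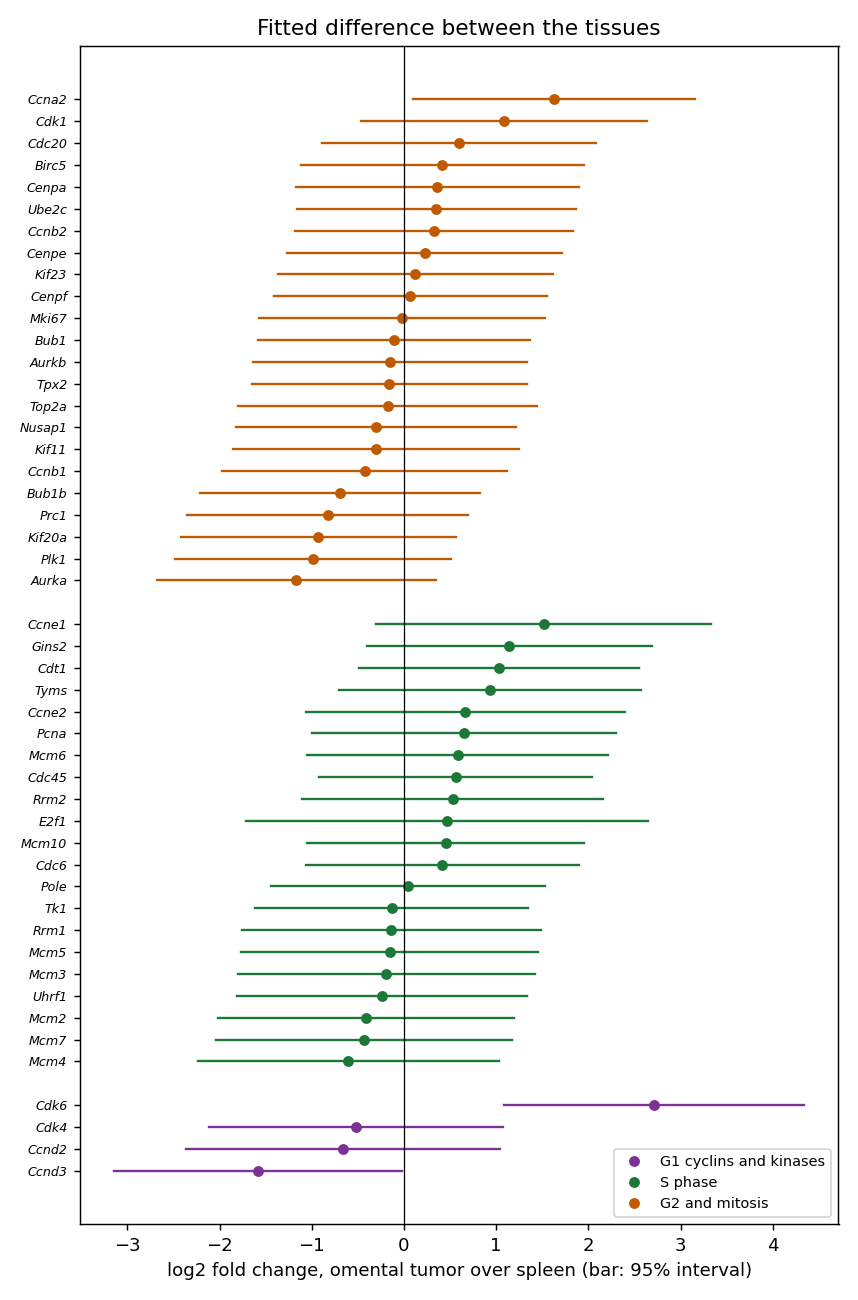
Fitted log2 fold change of each cell cycle gene, omental tumor over spleen, on the horizontal axis, with 1 point per gene, bars for 95% intervals and genes grouped by phase. The intervals of Cdk6, Ccna2 and Ccnd3 leave out 0, those of the other 45 genes include it, and no adjusted p passed 0.05.

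Within G1, the 2 kinases and 2 D cyclins had unlike patterns. Cdk6, a kinase that binds D cyclins, had the highest log2 fold change of the members. It was at 98.8 and 255 CPM in tumor Tregs against 33.5 and 20.4 CPM in spleen Tregs. Both omental libraries were above both spleen libraries, and the omental libraries differed from each other by 2.58-fold. Its mean was 177 ± 110.2 CPM for the tumor libraries and 26.9 ± 9.24 CPM for the spleen libraries (SD, n = 2). The fitted log2 fold change was 2.71 ± 0.83 (SE; 95% interval 1.09 to 4.34), with an adjusted p of 0.0711 by edgeR's quasi-likelihood test. The call depended on the method and on single libraries: the adjusted p was 0.00630 with DESeq2, 0.0406 with limma-voom and 0.0292 with upper-quartile scaling, and over all alternatives it ran from 0.00630 to 0.936. With the omental library of mouse 2 left out it was 0.00643, and with that of mouse 3 left out 0.936, at a log2 fold change of 1.79. Cdk6 lies at chr5:3341485-3531008 (mm10, plus strand), and 2 antisense genes overlap it, which unstranded libraries cannot separate from it.

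Ccnd3, a D cyclin of lymphocytes, had the lowest log2 fold change, at 53.7 and 43.5 CPM in tumor Tregs against 171 and 120.1 CPM in spleen Tregs. Here both omental libraries were below both spleen libraries. The log2 fold change was -1.58 ± 0.80 (SE; 95% interval -3.14 to -0.02), with an adjusted p of 0.547 by edgeR. Ccnd2, the other D cyclin listed, was at 364 and 559 CPM in tumor Tregs against 532 and 929.7 CPM in spleen Tregs, so the omental library of mouse 3 lay above the spleen of mouse 2. Cdk4, the partner kinase closest to Cdk6, was at 159 and 169 CPM in tumor Tregs against 168 and 301 CPM in spleen Tregs, and 3 of the 4 libraries fell between 159 and 169 CPM. Within each mouse Ccnd2, Ccnd3 and Cdk4 were lower in omental tumor, and they were the 3 members of the 48 lower there in both mice. The 95% intervals of their fitted log2 fold changes included 0 for Cdk4 and Ccnd2, from -2.11 to 1.08 and from -2.37 to 1.04.

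Of the genes that commit a cell to S phase, E2f1 and the E cyclins rested on few counts. E2f1, an activator of replication genes, was at 3.54 and 7.09 CPM in tumor Tregs against 3.33 and 4.30 CPM in spleen Tregs, from 27, 28, 34 and 47 counts. Ccne1, an E cyclin that activates CDK2, was at 4.99 and 25.3 CPM in tumor Tregs against 3.91 and 6.59 CPM in spleen Tregs, and Ccne2 at 12.2 and 16.5 CPM in tumor Tregs against 4.31 and 13.7 CPM in spleen Tregs. The omental library of mouse 3 was the highest of the 4 for all of E2f1, Ccne1 and Ccne2. For Ccne1 it was 5.08-fold above the omental library of mouse 2, and the 95% interval of the fitted log2 fold change ran from -0.30 to 3.33. Ccne2 overlaps Ints8 on the opposite strand over 5622 bases, so its reads are uncertain.

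The licensing factors Cdc6 and Cdt1, which load the MCM helicase at origins, had unlike patterns too. Cdc6 was at 64.2 and 32.2 CPM in tumor Tregs against 21.3 and 50.9 CPM in spleen Tregs, high in the omental library of mouse 2 and the spleen of mouse 3. Cdt1 was at 37.4 and 43.8 CPM in tumor Tregs against 32.2 and 7.41 CPM in spleen Tregs. Both omental libraries exceeded both spleen libraries for Cdt1, whose low value in the spleen of mouse 3 was 81 counts. Its log2 fold change was 1.04 ± 0.77 (SE), with an adjusted p of 0.748 by edgeR, and another annotated gene, Gm20388, covers Cdt1 on the same strand.

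The 6 subunits of the MCM2-7 helicase had a summed level of 2101 and 789 CPM in tumor Tregs against 1264 and 2012 CPM in spleen Tregs. The omental library of mouse 3 was the lowest of the 4 for 5 of the 6. Mcm2 was at 311 and 75.7 CPM in tumor Tregs against 174 and 343 CPM in spleen Tregs, and Mcm4 at 367 and 100.3 CPM in tumor Tregs against 255 and 456 CPM in spleen Tregs. Mcm3, Mcm5 and Mcm7 followed the same order, with 122, 145 and 121 CPM in tumor Tregs of mouse 3 and 371, 370.5 and 341 CPM in the spleen of that mouse. All 6 were lower in the omental library of mouse 3 than in that of mouse 2, by 2.10-fold for Mcm7 to 4.11-fold for Mcm2, where 31.9% of all genes were higher there. Mcm6 was the exception in spleen, at 494 and 226 CPM in tumor Tregs against 350.4 and 131 CPM in spleen Tregs, with the spleen of mouse 3 lowest of all.

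Per kilobase of transcript, a scale on which genes can be compared, the helicase subunits stood closest to each other in the omental library of mouse 2. They ran there from 85.6 CPM per kilobase for Mcm7 to 114 for Mcm3. In the omental library of mouse 3 they ran from 22.5 for Mcm2 to 52.0 for Mcm6. In the spleen of mouse 3, Mcm2, Mcm3, Mcm4, Mcm5 and Mcm7 were at 102, 122, 127, 109.6 and 115 CPM per kilobase and Mcm6 at 30.02. In the spleen of mouse 2, Mcm6 was instead the highest of the 6, at 80.5 CPM per kilobase against 47.5 to 71.1 for the others. In omental tumor, Mcm6 was at 113 and 52.0 CPM per kilobase, level with Mcm3 at the top of the subunits in mouse 2 and the highest in mouse 3. The fitted log2 fold changes of the 6 subunits ran from -0.60 for Mcm4 to 0.58 for Mcm6, with a median of -0.30, and every interval included 0.

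Among the genes that fire origins and copy DNA, Gins2, a subunit of the GINS part of the replicative helicase, was at 21.5 and 45.6 CPM in tumor Tregs against 9.88 and 20.4 CPM in spleen Tregs. Both omental values lay above both spleen values, the lower omental value by little. Its log2 fold change was 1.14 ± 0.79 (SE), with an adjusted p of 0.718 by edgeR, and Gm20388 covers Gins2 on the other strand, so its reads are uncertain. Mcm10, Cdc45 and Pole, an initiation factor, a helicase subunit and the leading-strand polymerase, had fitted log2 fold changes of 0.45, 0.56 and 0.05. Pole was at 103 and 27.1 CPM in tumor Tregs against 58.3 and 67.9 CPM in spleen Tregs, lowest in the omental library of mouse 3. Pcna, the sliding clamp of the polymerases, was at 263 and 564 CPM in tumor Tregs against 179 and 347 CPM in spleen Tregs, and the omental library of mouse 3 was highest. On the per-kilobase scale Pcna was the most abundant of these replication genes in the omental library of mouse 3, at 372 CPM per kilobase.

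Enzymes of nucleotide supply were divided in the same way. Tyms, which makes thymidylate, was at 338 and 417 CPM in tumor Tregs against 217 and 180.1 CPM in spleen Tregs, without overlap between the tissues. Its log2 fold change was 0.93 ± 0.84 (SE), with an adjusted p of 0.789 by edgeR. Rrm1, the large subunit of ribonucleotide reductase, was at 396 and 143 CPM in tumor Tregs against 162 and 430.2 CPM in spleen Tregs, and Rrm2, the small subunit, at 383 and 329.6 CPM in tumor Tregs against 127 and 367 CPM in spleen Tregs. The omental library of mouse 3 was the lowest of the 4 for Rrm1 but not for Rrm2. Tk1, a thymidine salvage kinase, was at 36.0 and 65.1 CPM in tumor Tregs against 30.4 and 80.2 CPM in spleen Tregs, highest in the spleen of mouse 3, and it is covered by Gm20708 on the other strand. Uhrf1, which keeps DNA methylation through replication, was at 233 and 61.8 CPM in tumor Tregs against 109 and 239 CPM in spleen Tregs, with the omental library of mouse 3 lowest, as for 5 of the helicase subunits.

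Of the 23 mitotic genes, Mki67, the proliferation marker, and Top2a, the topoisomerase that untangles chromosomes, had tissue means that nearly coincided. Mki67 was at 135 and 128 CPM in tumor Tregs against 81.8 and 186 CPM in spleen Tregs. Its mean was 132 ± 5.03 CPM for the tumor libraries and 134 ± 73.6 CPM for the spleen libraries (SD, n = 2), and the spleen values enclosed the omental ones. The log2 fold change was -0.02, with a 95% interval of -1.57 to 1.53 that leaves room for a difference of either sign. Top2a was at 326 and 206 CPM in tumor Tregs against 146 and 456 CPM in spleen Tregs, again with the lowest and the highest value both in spleen.

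**Figure D2:**
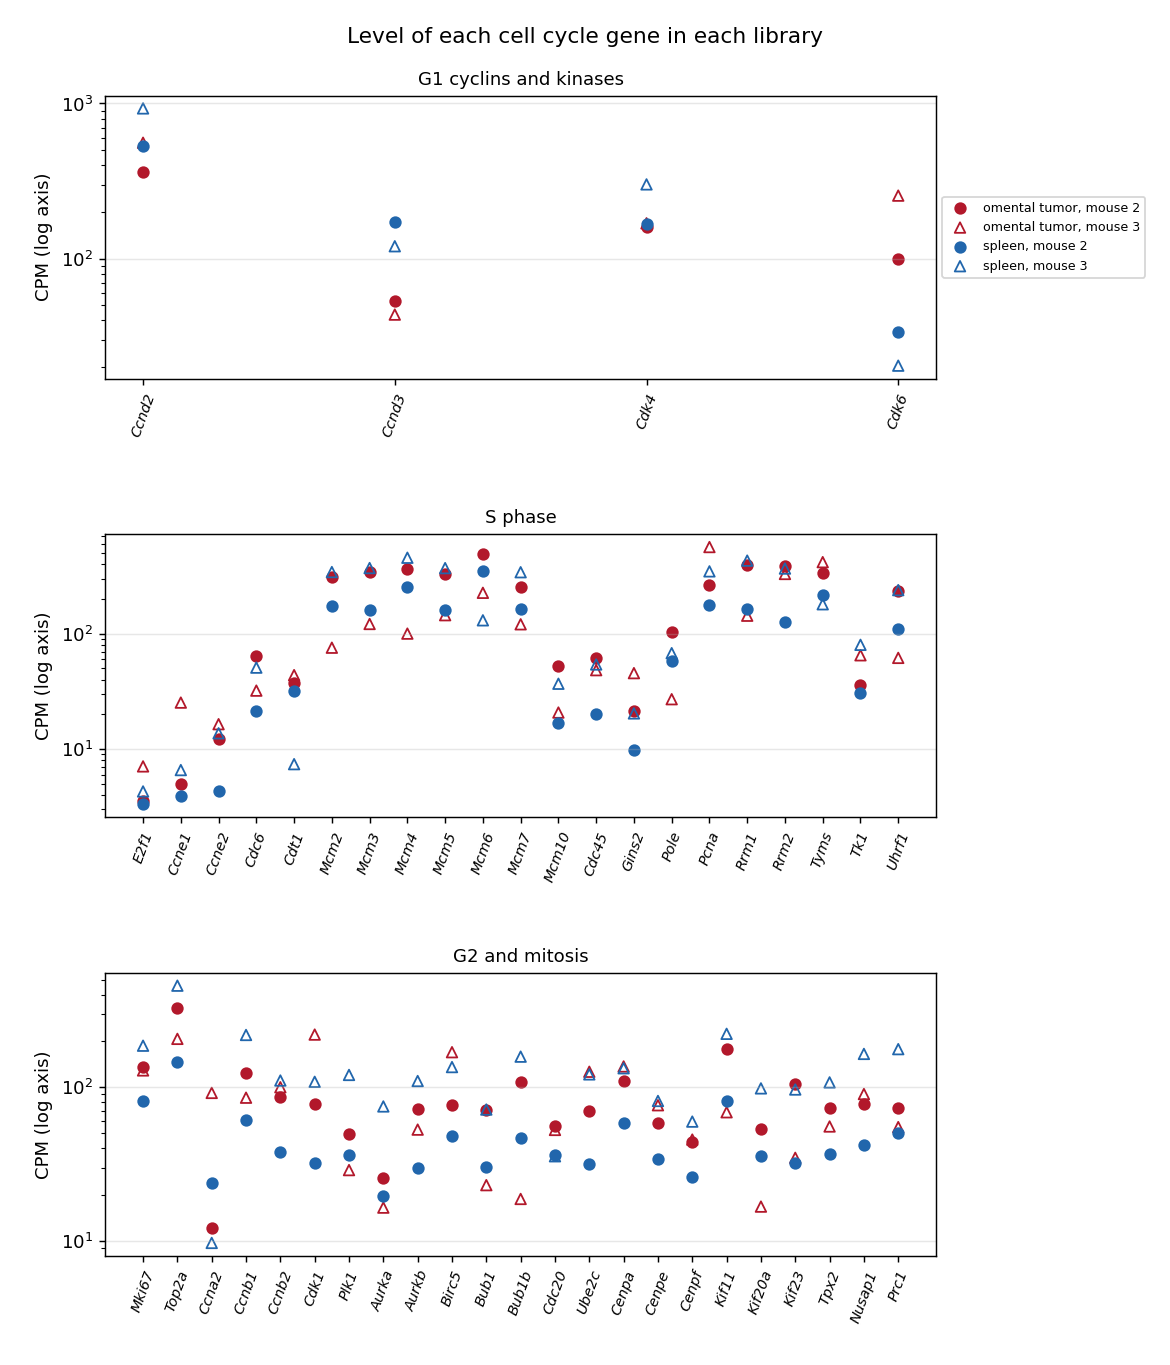
Level of each of the 48 cell cycle genes in each library, in CPM on a log axis, with 1 panel per phase, color for tissue and symbol shape for mouse. The spleen of mouse 3 (open blue triangle) lies above the spleen of mouse 2 (filled blue circle) for 41 of the 48 genes, and the omental points (red) lie both above or both below the spleen points for 6.

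Cdk1 and its cyclins had unlike patterns. Cdk1, the mitotic kinase, was at 77.8 and 219.5 CPM in tumor Tregs against 32.0 and 108 CPM in spleen Tregs, and was higher in omental tumor within each mouse, by 1.28 in mouse 2 and 1.02 in mouse 3 on the log2 scale. The spleen of mouse 3 exceeded the omental library of mouse 2, so the tissues overlapped, and the fitted log2 fold change of 1.08 ± 0.79 (SE) had an adjusted p of 0.740 by edgeR. Ccna2, cyclin A2, was at 12.2 and 91.6 CPM in tumor Tregs against 23.8 and 9.70 CPM in spleen Tregs. Only the omental library of mouse 3 was high, 7.51-fold above that of mouse 2, and the log2 fold change of 1.63 ± 0.78 (SE) had an adjusted p of 0.504 by edgeR. Without that library the log2 fold change of Ccna2 was -0.54. Ccna2 overlaps Exosc9 on the opposite strand over 863 bases. Ccnb1 and Ccnb2, the B cyclins that bind CDK1, were at 123 and 85.3 CPM in tumor Tregs against 61.5 and 218 CPM in spleen Tregs and at 86.2 and 99.8 CPM in tumor Tregs against 37.8 and 110.3 CPM in spleen Tregs, with the spleen of mouse 2 lowest and that of mouse 3 highest for both.

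The mitotic kinases Plk1 and Aurka had the most negative log2 fold changes of this phase. Aurka, which matures the spindle poles, was at 25.5 and 16.5 CPM in tumor Tregs against 19.5 and 74.8 CPM in spleen Tregs, and Plk1, which drives mitotic entry, at 49.6 and 28.9 CPM in tumor Tregs against 36.2 and 120.0 CPM in spleen Tregs. In both, the spleen of mouse 3 stood above the other 3 libraries, which overlapped. Their log2 fold changes were -1.17 ± 0.77 and -0.99 ± 0.76 (SE). Aurkb and Birc5, partners in the chromosomal passenger complex, had log2 fold changes of -0.15 and 0.42. Aurkb was at 72.5 and 52.9 CPM in tumor Tregs against 29.7 and 109.5 CPM in spleen Tregs, and Birc5 at 76.1 and 169 CPM in tumor Tregs against 48.3 and 135 CPM in spleen Tregs. Within omental tumor mouse 3 was the lower for Aurkb and the higher for Birc5.

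The spindle checkpoint gene Bub1b had the lowest ratio of the omental library of mouse 3 over that of mouse 2 among the 48 members. Bub1b, the checkpoint protein BubR1, was at 107 and 18.7 CPM in tumor Tregs against 46.6 and 158 CPM in spleen Tregs, 5.72-fold lower in the omental library of mouse 3 than in that of mouse 2. Bub1, a checkpoint kinase, was at 70.9 and 23.0 CPM in tumor Tregs against 30.04 and 71.5 CPM in spleen Tregs, and it too was lowest in the omental library of mouse 3. Cdc20, the activator of the anaphase-promoting complex, varied least between mice, at 55.7 and 52.7 CPM in tumor Tregs against 36.2 and 35.5 CPM in spleen Tregs. Its tissues did not overlap, its mean was 54.2 ± 2.12 CPM for the tumor libraries and 35.9 ± 0.498 CPM for the spleen libraries (SD, n = 2), and its log2 fold change was 0.60 ± 0.76 (SE). The adjusted p of Cdc20 was 0.847 by edgeR, in which its own small spread carried no weight. Ube2c, the ubiquitin-conjugating enzyme of that complex, was at 69.4 and 126 CPM in tumor Tregs against 31.8 and 121 CPM in spleen Tregs.

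Centromere genes had small fitted differences. Cenpa, the centromeric histone, was at 109 and 136 CPM in tumor Tregs against 58.3 and 133 CPM in spleen Tregs, and Cenpe and Cenpf, kinetochore proteins, had log2 fold changes of 0.22 and 0.07. The Kif kinesins and the spindle and midzone proteins Tpx2, Nusap1 and Prc1 had negative log2 fold changes with 1 exception, Kif23. Kif11, Kif20a and Kif23 were at -0.30, -0.93 and 0.12, Tpx2 and Nusap1 at -0.16 and -0.30, and Prc1 at -0.83. Kif20a, a kinesin of cytokinesis, was at 53.3 and 16.7 CPM in tumor Tregs against 35.6 and 98.1 CPM in spleen Tregs, and Kif11, which separates the spindle poles, at 176 and 68.6 CPM in tumor Tregs against 80.6 and 222 CPM in spleen Tregs. For both, the omental library of mouse 3 was lowest and the spleen of mouse 3 highest. Prc1 shares 21810 bases with Rccd1 on the opposite strand and Kif20a 2327 bases with Cdc23, so both are uncertain. Overlaps given in this report are of whole gene spans, introns included, and the part that lies in exons was not measured. Not every overlap is given: Ccnd2 and Ube2c, among others, also overlap genes on the opposite strand, over 2805 and 1662 bases.

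In non-overlap of the tissues, 5 members (Cdk6, Cdt1, Gins2, Tyms and Cdc20) had both omental libraries above both spleen libraries, where 16.4% of all genes did. Ccnd3 alone had both below, where 25.4% of all genes did.

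The clearest structure among the members was between mice. In mouse 2, 44 of 48 members were higher in omental tumor than in spleen, including all 21 S-phase and 22 of 23 mitotic genes, where 53.4% of all genes were. In mouse 3, 15 of 48 were higher, 8 of the S-phase and 6 of the mitotic genes, where 51.8% of all genes were. The median log2 ratio was 0.84 in mouse 2 and -0.30 in mouse 3 for S phase, and 0.90 and -0.95 for mitosis, against 0.07 and 0.09 for all genes. The sign for S phase in mouse 3 depended on the scaling. Scaled by library gene totals alone, the mouse 3 medians were 0.08 for S phase and -0.57 for mitosis, against 0.44 for all genes. Of the 21 S-phase genes, 11 were then higher in omental tumor in mouse 3, and 12 with upper-quartile factors, where 59.7% and 65.8% of all genes were. Altogether 30 members (62.5%) were higher in omental tumor in mouse 2 and lower in mouse 3, a pattern of 16.4% of all genes. Of the rest, 14 were higher in both mice and 3 lower in both, where 6018 and 5164 of the 16322 genes tested were. Ccna2 was lower in mouse 2 and higher in mouse 3. With library gene totals alone the counts were 45 in mouse 2 and 20 in mouse 3, against 60.9% and 59.7% of all genes, and 26 members had opposite signs in that order. With upper-quartile factors they were 45 and 23, against 66.5% and 65.8% of all genes, and 23 members had opposite signs. Some markers of other cells followed the same pattern by their medians. The 6 B and plasma cell markers had medians of 1.84 in mouse 2 and -1.64 in mouse 3 on the log2 scale. The 8 macrophage and monocyte markers had 0.29 and -1.34, but that list was split. Of the 8, 6 were higher in omental tumor in mouse 2 and 3 in mouse 3. Their sum was higher in omental tumor in both mice, at 423 and 703 CPM against 173 and 356 CPM in spleen. By edgeR 2 of the 8 were called higher and 0 lower, where 1.09% and 0.227% of all genes were. The 5 neutrophil markers, with medians of 0.25 and 5.62, and the 3 immature T cell markers tested, with 1.19 and 2.40, did not follow the pattern. Granulocyte precursor markers, of which 2 of the 7 listed were tested, did follow it, with medians of 1.61 and -0.79. Their sums were low, between 3.13 and 17.02 CPM. The part of these cells in the members' pattern was not tested. The difference between the mice was not tested, because each mouse gave 1 library per tissue.

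**Figure D3:**
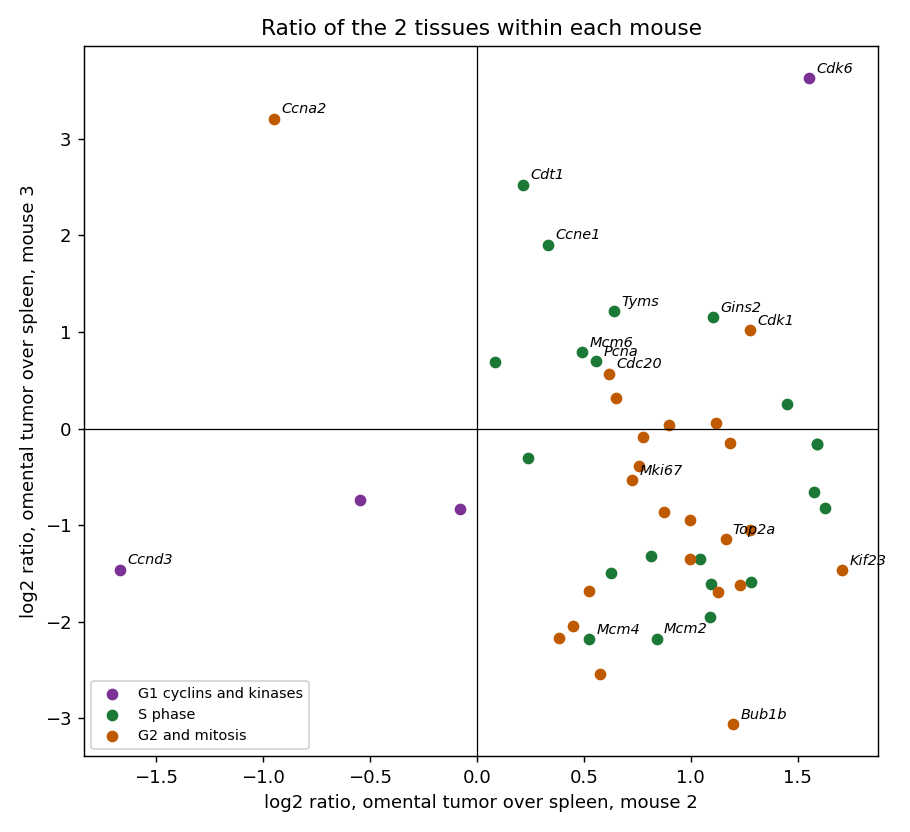
Log2 ratio of omental tumor over spleen in mouse 2 (horizontal) and in mouse 3 (vertical), with 1 point per cell cycle gene colored by phase. The lower right quadrant, higher in omental tumor in mouse 2 and lower in mouse 3, holds 30 of the 48 points, and Cdk6 is at the upper right.

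Within a tissue, the difference between the mice ran in the same direction for more of these genes in spleen than in omental tumor. The medians below keep the sign, so differences of opposite sign cancel and the medians do not measure the width of the gap. The spleen of mouse 3 exceeded the spleen of mouse 2 for 41 of 48 members, 21 of 23 mitotic and 18 of 21 S-phase genes, where 46.3% of all genes did. The median log2 difference between the spleens was 1.22 over the members, 1.55 for mitosis and 1.06 for S phase, against -0.15 over all genes. The 7 members lower in the spleen of mouse 3 were Ccnd3, Cdk6, Cdt1, Mcm6, Tyms, Ccna2 and Cdc20. In omental tumor, mouse 3 exceeded mouse 2 for 20 of 48 members, with a median of -0.32, where 31.9% of all genes did with a median of -0.63, so in that tissue the members' median was the less negative of the pair. With RLE factors 27 of the 48 were higher in the omental library of mouse 3. The gap between mice was also taken in spleen or in omental tumor, whichever was larger. That larger gap exceeded the size of the fitted log2 fold change between the tissues for 43 of 48 members (89.6%), against 73.2% of all genes.

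Summed levels showed the same order. S-phase genes summed to 4111 and 2637 CPM in tumor Tregs against 2259 and 3918 CPM in spleen Tregs. Mitotic genes summed to 2058 and 1896 CPM in tumor Tregs against 1057 and 3052 CPM in spleen Tregs. The ratio of the mitotic to the S-phase sum was 0.501 in the omental tumor and 0.468 in the spleen of mouse 2, and 0.719 and 0.779 in mouse 3, so the libraries of 1 mouse were nearer to each other in this ratio than those of 1 tissue. The G1 sum was 676 and 1026 CPM in tumor Tregs against 904 and 1371 CPM in spleen Tregs.

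**Figure D4:**
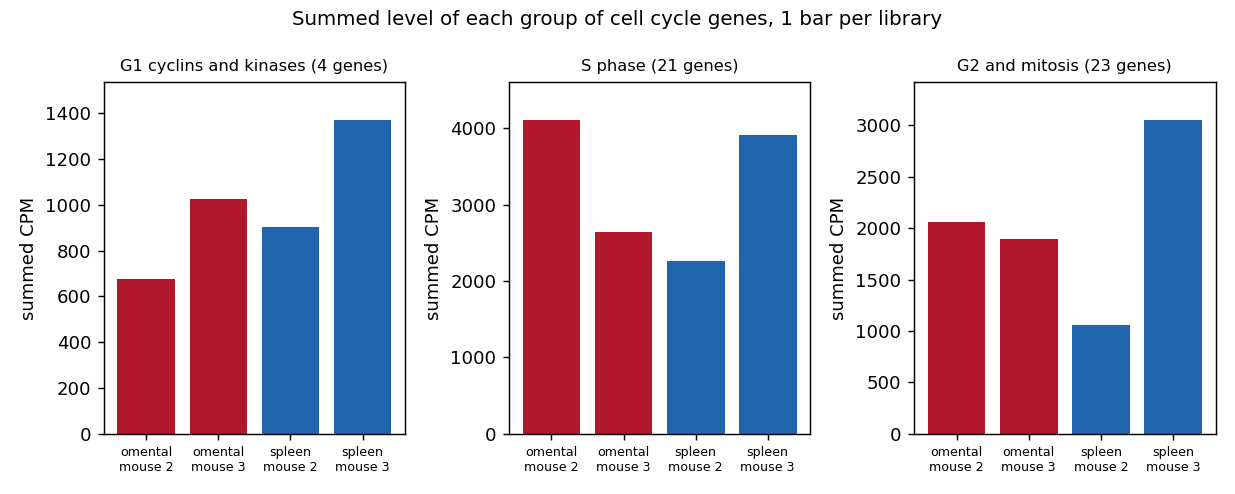
Summed CPM of the 4 G1, 21 S-phase and 23 mitotic genes, with 1 panel per phase and 1 bar per library, red for omental tumor and blue for spleen. In S phase and mitosis the spleen of mouse 2 has the lowest bar, at 2259 and 1057 CPM, and the spleen of mouse 3 stands at 3918 and 3052 CPM.

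Members with and without these promoter letters shared the signs of the mouse ratios. The 11 members with an E2F match had medians of 1.05 in mouse 2 and -1.35 in mouse 3 on the log2 scale, and the 28 without one 0.81 and -0.34. The 16 members with a CHR match had medians of 1.01 and -0.84, and the 23 without one 0.78 and -0.66. Rrm1 and Uhrf1, shown above with an E2F match, had ratios of 1.28 and 1.09 (log2) in mouse 2, and of -1.58 and -1.95 in mouse 3. Mcm6, also with an E2F match, had 0.49 and 0.79.

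The further replication and mitotic genes showed the pattern by mouse in these same libraries, and the further G1 control genes did not. Of 59 further replication genes tested, edgeR called 0 at an adjusted p under 0.05. At an unadjusted p under 0.05 it counted 3, and 9.01% of all genes. DESeq2 called 1 (Dut) and limma-voom 0, where they called 370 and 163 of the 16322 genes. Of the 59, 50 were higher in omental tumor in mouse 2 and 23 in mouse 3, where 53.4% and 51.8% of all genes were. Of 73 further mitotic genes, 66 were higher in mouse 2 and 24 in mouse 3, and 1, Lmnb1, rose, where 1.09% of all genes were called higher. Of 20 further G1 control genes tested out of 22 listed, 11 were higher in mouse 2 and 10 in mouse 3, and 1, Cdkn1a, rose. The medians of the fitted log2 fold changes were 0.19, -0.02 and -0.12 for the 3 lists, against 0.11 for all genes.

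Cdkn1a, which encodes the cyclin-dependent kinase inhibitor p21, was at 85.8 and 239 CPM in tumor Tregs against 4.11 and 4.58 CPM in spleen Tregs. Both omental libraries were far above both spleen libraries, and the log2 fold change was 5.22 ± 0.93 (SE), with an adjusted p of 7.98e-06 by edgeR's quasi-likelihood test. The adjusted p was 0.225 without the spleen library of mouse 2, 0.0756 without that of mouse 3 and 0.0613 at a minimum count of 50, and over all alternatives it ran from 4.28e-09 to 0.225. Lmnb1, a lamin of the nuclear envelope, was at 26.3 and 107 CPM in tumor Tregs against 4.89 and 3.48 CPM in spleen Tregs, with a log2 fold change of 3.98 ± 0.86 (SE) and an adjusted p of 8.02e-04 by edgeR. For Lmnb1 it was 0.936 when the omental library of mouse 3 was left out, 0.361 and 0.192 when the spleen of mouse 2 or of mouse 3 was, 0.0939 with library gene totals alone and 0.114 at a minimum count of 50. For both genes the omental library of mouse 3, which had the highest neutrophil marker sum (1377 CPM), was the highest of the 4.

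The remaining pathway genes with the smallest p did not pass the threshold. Among G1 regulators, the CDK inhibitor Cdkn2d was at 25.3 and 36.5 CPM in tumor Tregs against 105 and 159 CPM in spleen Tregs and Ccnd1, a further D cyclin, at 14.6 and 14.2 CPM in tumor Tregs against 3.23 and 3.39 CPM in spleen Tregs, each without overlap and in opposite directions. Their adjusted p values by edgeR were 0.274 and 0.477. Ccng2, an atypical cyclin, had a log2 fold change of -1.32. Among replication genes, E2f2, an E2F activator, was at 16.7 and 10.1 CPM in tumor Tregs against 58.5 and 63.0 CPM in spleen Tregs, the opposite sign to the GINS subunit Gins1 at 17.7 and 40.3 CPM in tumor Tregs against 7.05 and 10.2 CPM in spleen Tregs. Dut, which removes dUTP, and Dscc1, a clamp-loading factor, had log2 fold changes of 2.46 and 1.73. Among mitotic genes, the CDK-activating phosphatase Cdc25b, Ccnf and the centromere gene Cenpw had -1.83, -1.38 and 1.34, and all of these had adjusted p values by edgeR of 0.129 or more.

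Transcript length moved with the difference between the omental libraries, so it is given beside these results. Taking the longest coding transcript, members ran from 1440 to 11525 bases. The median log2 ratio of the omental library of mouse 3 over that of mouse 2 was 0.26 for the 8 members under 2000 bases, -0.41 for the 27 from 2000 to 4000 and -0.40 for the 13 over 4000, and for all genes it was 0.25, -0.71 and -0.97. Across 48 members Pearson's r between log length and that ratio was -0.15, and across 14632 genes -0.32. These are descriptions across genes of 2 libraries. Cdk6, the longest member, and Cdk1 lay above the median of their length class, while Bub1b and Mcm2 lay below. With the trend removed from each library, 45 members were higher in omental tumor in mouse 2 and 16 in mouse 3, 30 had opposite signs in that order, and Cdk6 had an adjusted p of 0.0206 by edgeR. Between the spleens the members' medians were 1.29, 1.24 and 1.19 in the same classes, where all genes gave 0.33, 0.07 and -0.36, so the gap between the spleens in these genes was present at every length.

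**Figure D5:**
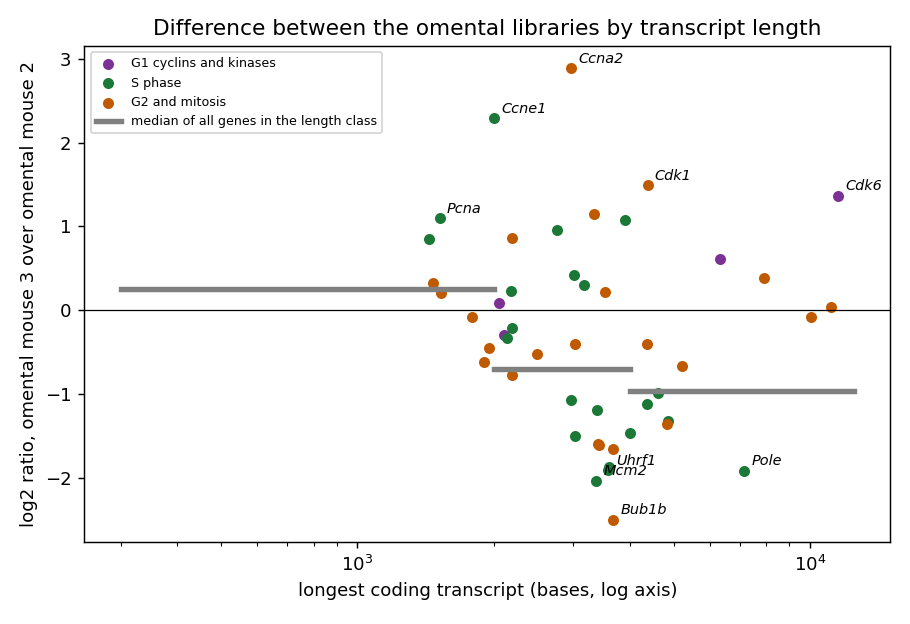
Log2 ratio of the omental library of mouse 3 over that of mouse 2 against the length of the longest coding transcript in bases (log axis), with 1 point per cell cycle gene and grey lines for the median of all genes in each length class. The grey lines step down from 0.25 to -0.97, and the members scatter from Ccna2 at the top to Bub1b at the bottom.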

How the data were processed

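RNA-seq of 4 libraries was analysed, 1 per tissue from mouse 2 and mouse 3. The authors deposited raw read counts for each gene symbol. The tools named in the submitters' processing notes are HTSeq, SAMtools, TopHat2 and Trim Galore, with the build mm10. Tool versions, gene models and strandedness of counting: not given in the sources used here. Per the labels' protocols, cDNA was made with the SMART-seq v4 kit and libraries with Nextera XT, which do not mark strand. HTSeq's entries that name no gene, 82.9% and 77.8% of the omental and 75.1% and 54.0% of the spleen entries, were left out.

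The tests used edgeR 4.0.16 in R 4.3.3: filterByExpr at a minimum count of 10, TMM factors, and the quasi-likelihood test with tissue alone in the model (2 residual degrees of freedom; the prior degrees of freedom were infinite, so each gene's spread was that of the trend over all genes and its own carried no weight), Benjamini-Hochberg adjusted over all genes tested, with a threshold of 0.05. SE is the absolute log2 fold change over the square root of F, and log ratios within a mouse used a prior count of 2. The p-values measure only the spread between these libraries. DESeq2 1.42.0, limma-voom (limma 3.58.1), other scalings and filters, each library left out and the mouse as a block were alternatives. The labels name the same mouse for both tissues; deviations of same-mouse libraries from their tissue means correlated at 0.23 over all genes and -0.24 over the members. The method was tested on simulated data of 15345 genes. Lengths came from GENCODE and promoters from RefSeq GRCm38.p6, using the first window listed for a symbol.

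The members and lists were chosen with earlier results of these data known. Beyond the members, the 4 genes with the smallest p in each pathway list and the 2 most abundant of each marker list could be named. Ly6g, a neutrophil marker on the list, was not analysed here.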

Additional observations from a re-analysis of the deposited data

How the results depend on the processing

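By edgeR, 215 genes differed between the tissues, 178 higher and 37 lower in omental tumor, and 0 were members. The counts in all, higher and lower were 26, 24 and 2 with library gene totals alone and 3, 3 and 0 at a minimum count of 50, where 46 members were tested. DESeq2 gave 370 in all and 124 lower, and limma-voom 107 higher and 56 lower. Upper-quartile factors gave 13 lower. With the mouse as a replicate block the counts were 308, 241 and 67, no call on a member changed, and the number of members at an unadjusted p under 0.05 went from 3 to 1. With the trend with transcript length removed from each library, an alternative chosen after seeing the data, 57 were lower. Leaving out 1 library at a time gave 44 to 606 genes in all, 38 to 323 higher and 6 to 283 lower, each fit assuming that the lone library of a tissue varies like the other tissue. Members called went from 0 to 1 with upper-quartile factors, DESeq2, limma-voom and the length trend removed, and were 0 to 1 with 1 library left out. Cdk6 was the member in each case. The G1 median of -0.59 was -0.038 with upper-quartile factors and -1.0005 to 0.18 with 1 library left out. The S-phase median was -0.10 to 0.99 and the mitotic median -0.66 to 1.05 with 1 library left out. With upper-quartile factors the sign turned for 16 members, to log2 fold changes of Cdk4 0.024, Mcm2 0.038, Mcm3 0.29, Mcm5 0.33, Mcm7 0.060, Rrm1 0.35, Tk1 0.45, Uhrf1 0.22, Mki67 0.52, Top2a 0.34, Ccnb1 0.11, Aurkb 0.39, Bub1 0.37, Kif11 0.19, Tpx2 0.37, Nusap1 0.27. With library gene totals alone the sign turned for 12 members, to log2 fold changes of Mcm3 0.18, Mcm5 0.21, Rrm1 0.24, Tk1 0.20, Uhrf1 0.13, Mki67 0.32, Top2a 0.20, Aurkb 0.23, Bub1 0.26, Kif11 0.076, Tpx2 0.20, Nusap1 0.070. At a minimum count of 50 the sign turned for 12 members, to log2 fold changes of Mcm3 0.13, Mcm5 0.16, Rrm1 0.19, Tk1 0.20, Uhrf1 0.073, Mki67 0.30, Top2a 0.16, Aurkb 0.20, Bub1 0.21, Kif11 0.024, Tpx2 0.18, Nusap1 0.054. With no filter on low counts the sign turned for 3 members, to log2 fold changes of Pole -0.10, Cenpf -0.094, Kif23 -0.040. With limma-voom the sign turned for 6 members, to log2 fold changes of Pole -0.23, Mki67 0.10, Top2a 0.0049, Aurkb 0.12, Tpx2 0.028, Nusap1 0.0089. With the mouse as a replicate block the sign turned for 6 members, to log2 fold changes of Pole -0.25, Mki67 0.10, Top2a 0.0081, Aurkb 0.12, Tpx2 0.025, Nusap1 0.0056. With the length trend removed the sign turned for 3 members, to log2 fold changes of Pole -0.13, Cenpf -0.13, Tpx2 0.026. With RLE factors and with DESeq2 the sign turned for Mki67 0.048. Leaving out 1 library at a time turned the sign of 39 members in at least 1 fit, with log2 fold changes of Ccnd2 -1.09 to 0.12, Cdk4 -0.93 to 0.23, E2f1 -0.19 to 0.99, Ccne1 -0.16 to 2.38, Cdc6 -0.18 to 1.33, Mcm2 -1.78 to 0.22, Mcm3 -1.15 to 0.64, Mcm5 -0.89 to 0.71, Mcm6 -0.10 to 1.40, Mcm7 -1.08 to 0.34, Mcm10 -0.39 to 1.25, Cdc45 -0.042 to 1.67, Pole -1.23 to 0.62, Pcna -0.088 to 1.58, Rrm1 -1.06 to 0.84, Rrm2 -0.10 to 1.73, Tk1 -0.72 to 1.07, Uhrf1 -1.51 to 0.51, Mki67 -0.55 to 0.94, Top2a -0.84 to 1.06, Ccna2 -0.54 to 2.44, Ccnb1 -1.13 to 0.96, Ccnb2 -0.31 to 1.58, Plk1 -1.67 to 0.30, Aurka -1.89 to 0.30, Aurkb -0.86 to 1.29, Birc5 -0.36 to 1.71, Bub1 -1.15 to 0.75, Bub1b -2.46 to 0.47, Ube2c -0.37 to 1.96, Cenpa -0.17 to 1.37, Cenpe -0.33 to 1.29, Cenpf -0.47 to 1.05, Kif11 -1.16 to 0.73, Kif20a -2.02 to 0.074, Kif23 -0.91 to 1.23, Tpx2 -0.80 to 1.03, Nusap1 -1.03 to 1.27, Prc1 -1.52 to 0.55. The cause of these changes was not tested. At this depth, lowest at 3764510 counts in the omental library of mouse 3, and with 2 mice per tissue, 0% of simulated 4-fold changes were called, and what depth and mouse number each add was not tested. None of the alternatives planned was left out.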
